A study of Mus musculus with 8 samples.

Results

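The genes described here are 10 transcription factors and signalling genes of the lung mesenchyme: the T-box genes Tbx2, Tbx3, Tbx4 and Tbx5, the forkhead gene Foxf1a (current symbol Foxf1), and the Hedgehog pathway genes Ptch1, Smo, Gli1, Gli2 and Gli3. They were chosen by symbol, and each had 1 row among the 15728 genes of the deposited table. Lungs of 4 wild type mice were compared with lungs of 4 mice lacking the genes of all 3 nitric oxide synthases, which are the neuronal, the inducible and the endothelial enzyme (n/i/eNOSs-/-), all labelled as C57BL/6J background, 4 weeks of age and unexposed. The labels give no sex, litter or time of collection, and do not say that libraries came from separate animals, so p-values measure only the spread between these libraries. RNA was measured by CAGE (cap analysis of gene expression), which captures and counts the capped 5′ ends of RNA, and values are counts per 1000000 reads (CPM). The comparison asks how lung expression differs without the 3 synthases.

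T-box proteins are transcription factors that share a DNA-binding domain. Tbx2, Tbx3, Tbx4 and Tbx5 are the members expressed in lung mesenchyme, where Tbx4 and Tbx5 support branching of the airways through the growth factor Fgf10, and Tbx2 and Tbx3 act mostly as repressors that keep mesenchymal cells dividing. In Hedgehog signalling, Shh from the epithelium binds the receptor Ptch1 on mesenchymal cells and so releases Smo, whose activity turns Gli2 and Gli3 towards activators. Gli1, Ptch1 and Hhip are transcribed in response, and Foxf1, a factor needed for lung vessels and mesenchyme, is a target in the embryo.

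Promoter windows from RefSeq (GRCm38.p6) matched 5 of the 10 genes by symbol: Tbx4, Ptch1, Smo, Gli2 and Gli3. The 250 bases before the annotated start are shown for Tbx4, as the T-box gene with a window, and for Ptch1, as a gene transcribed in response to Hedgehog. Capitals mark a match to the TATA letters TATAAA, read on either strand.
Tbx4, chr11:85896515-85896764 (+): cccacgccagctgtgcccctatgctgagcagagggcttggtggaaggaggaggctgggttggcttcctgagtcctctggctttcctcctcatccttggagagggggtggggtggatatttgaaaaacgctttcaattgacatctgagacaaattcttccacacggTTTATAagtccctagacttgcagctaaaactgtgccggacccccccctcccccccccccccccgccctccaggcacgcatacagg
Ptch1, chr13:63565736-63565985 (-): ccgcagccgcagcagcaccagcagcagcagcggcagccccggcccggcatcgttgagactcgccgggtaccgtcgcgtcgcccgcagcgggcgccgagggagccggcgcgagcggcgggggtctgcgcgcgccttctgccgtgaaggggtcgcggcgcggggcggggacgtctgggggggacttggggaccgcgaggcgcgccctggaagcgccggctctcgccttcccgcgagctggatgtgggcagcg
The Tbx4 window held 58.4% G and C and 6 CG dinucleotides, against medians of 52.4% and 6 over 32536 distinct windows. The Ptch1 window held 78.4% and 41 CG dinucleotides, and the windows of Gli3, Gli2 and Smo held 34, 22 and 15. None of the 5 windows held the GLI letters GACCACCCA, the T-box letters AGGTGTGA or the forkhead letters GTAAACA on either strand, which 0.218%, 1.12% and 3.17% of all windows did. The TATA letters stood 85 bases before the Tbx4 start, and 12.3% of all windows held them. The reads were placed on mm9, and which start sites they came from is not in the gene table, so the windows show sequence only.

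Of 14065 genes tested across the series, 30.9% differed between the genotypes (limma adjusted p under 0.05), 16.6% higher and 14.3% lower in the knockout. Markers of lung epithelium (Sftpc, Scgb1a1, Hopx), endothelium (Pecam1) and mesenchyme (Col1a1, Pdgfra, Tcf21) were detected in every library. Nos3, the endothelial synthase, fell from 19.8 ± 2.06 to 7.37 ± 1.49 CPM (mean ± SD, n = 4 each; limma adjusted p = 4.58e-05), though where its reads lie relative to the deleted part is not known. Library totals were 15598154 to 18593913 reads in wild type and 13014134 to 15096188 reads in the knockout, so every knockout library was shallower than every wild type library. Depth and genotype therefore cannot be told apart here.

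Of the 10 genes, 9 passed the limit on low values and were tested, and Gli1 did not. Foxf1a and Tbx2 were lower in the knockout and none was called higher, so that 2 of 9 were called, beside 30.9% of all genes tested. At an unadjusted p under 0.05 limma also placed Tbx3 and Tbx4 higher, which makes 4 of 9 beside 42.6% of all genes tested (22.7% on the higher side). With edgeR and with DESeq2 on reads recovered from the CPM, Tbx3 and Tbx4 were both called higher, and 4 of 9 genes were called beside 32.5% and 31.7% of all genes (16.0% and 15.6% higher). With TMM and with median-ratio scaling the same 4 genes were called, beside 32.7% and 32.8% of all genes (15.9% and 16.0% higher). With the replicate number as a block 3 were called, Tbx3 among them, beside 31.3%. The median log2 fold change of the 9 genes was 0.00, and that of all genes tested was 0.01.

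**Figure D1:**
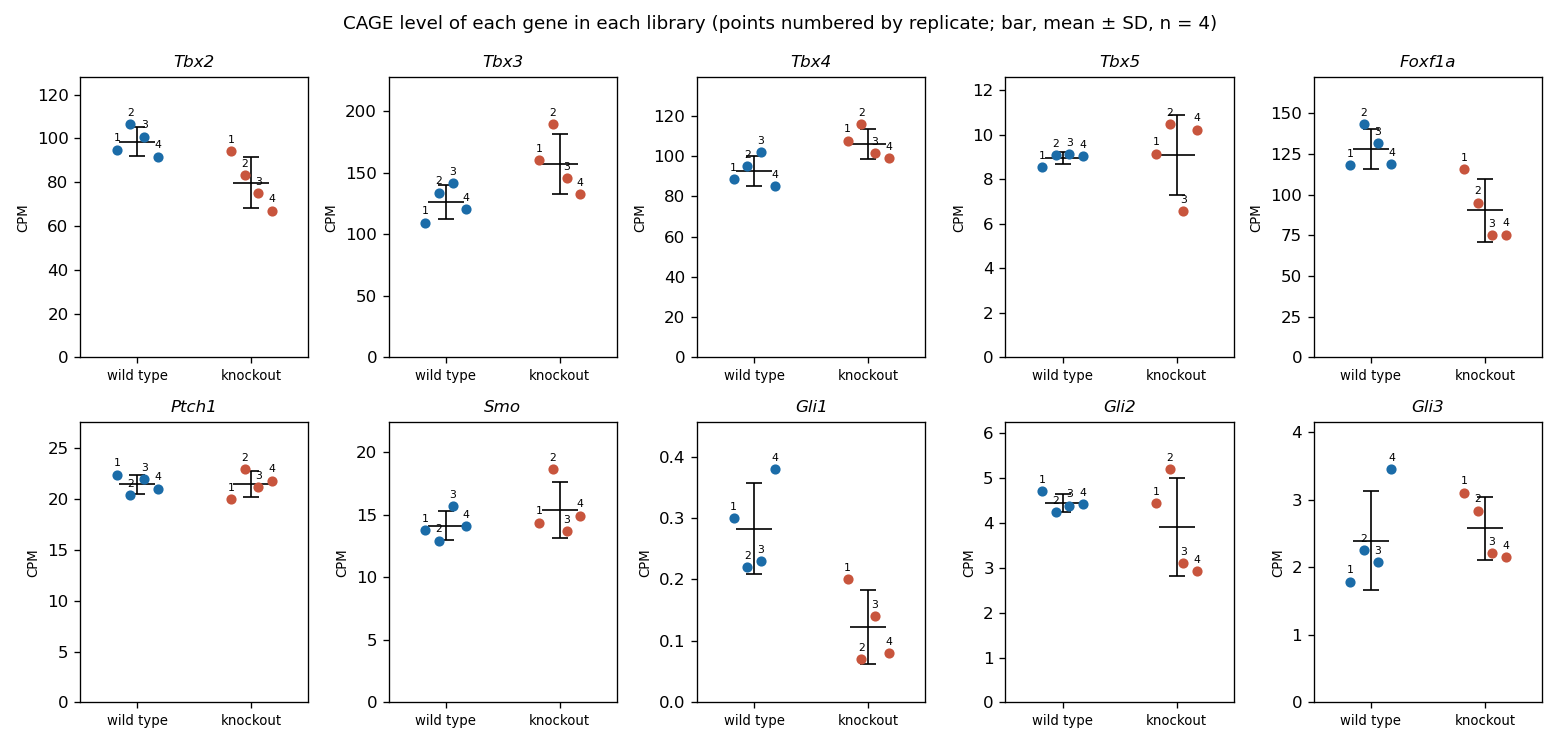
CAGE level in CPM (vertical axis, from 0) of the 10 genes in each of the 4 wild type (blue) and 4 knockout (red) libraries, numbered by replicate, with mean ± SD as black bars. The genotypes do not overlap for Foxf1a, or for Gli1, which stays under 0.4 CPM, while for Tbx2 knockout replicate 1 lies within the wild type range.

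Tbx2, a T-box repressor, stood at 94.86, 106.65, 100.81 and 91.68 CPM in wild type replicates 1 to 4 and at 94.26, 83.17, 74.88 and 67.08 CPM in knockout replicates 1 to 4. Knockout replicate 1 lay within the wild type range, and the other 3 knockout libraries lay below all of it. Tbx2 fell by 0.31 on the log2 scale (SE 0.098, 95% interval -0.52 to -0.10, limma adjusted p = 0.0327). The call was lost in 5 of the 8 fits that left out 1 library, those omitting wild type replicates 1, 2 and 3 and knockout replicates 3 and 4 (adjusted p = 0.0549 to 0.0908). Over all 18 alternatives the adjusted p was 0.00456 to 0.0908. Within each genotype the 4 libraries follow the order of their depth in Tbx2: replicates 2, 3, 1 and 4 in wild type, from 18593913 to 15598154 reads, and replicates 1 to 4 in the knockout, from 15096188 to 13014134 reads. The part of depth in the result was not tested.

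Tbx3, the closest relative of Tbx2 and also a repressor, stood at 109.57, 133.81, 141.46 and 120.72 CPM in wild type and at 160.24, 189.88, 145.54 and 132.63 CPM in the knockout. The groups overlapped only through knockout replicate 4, and the other 3 knockout libraries lay above every wild type library. The difference was 0.31 on the log2 scale (SE 0.111, 95% interval 0.06 to 0.55) and missed the threshold (adjusted p = 0.0565). It passed under 7 of 18 alternatives, among them TMM scaling (adjusted p = 0.0363), edgeR (0.0372) and DESeq2 (0.0191), and the range over all was 0.0191 to 0.151.

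Tbx4, which marks lung mesenchyme from its earliest stages, stood at 88.4, 95.08, 101.97 and 84.95 CPM in wild type and at 107.71, 115.97, 101.38 and 98.97 CPM in the knockout. Knockout replicates 1 and 2 lay above all wild type libraries, and replicates 3 and 4 lay within their range. The difference of 0.19 on the log2 scale (SE 0.075, 95% interval 0.03 to 0.36) missed the threshold (adjusted p = 0.0695) and passed under 5 of 18 alternatives (0.0379 to 0.17). Tbx5, the paralogue of Tbx4 that also acts in the atria of the heart, stood at 8.55, 9.09, 9.12 and 9.04 CPM in wild type and at 9.14, 10.48, 6.56 and 10.22 CPM in the knockout. The knockout libraries spread on both sides of the wild type values, with an SD of 1.79 CPM against 0.269. The part of counting error in these spreads was not tested. The log2 fold change was 0.00 (95% interval -0.29 to 0.30, adjusted p = 0.992), -0.02 with TMM scaling and 0.04 with quantile normalization.

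Foxf1a, the forkhead factor, stood at 117.89, 143.43, 131.76 and 118.6 CPM in wild type and at 115.46, 94.94, 75.22 and 75.38 CPM in the knockout. The groups did not overlap, which held for 31.2% of all genes tested, and knockout replicate 1 lay closest to wild type. Foxf1a fell by 0.52 on the log2 scale (SE 0.129, 95% interval -0.80 to -0.24, adjusted p = 0.0111), the largest difference among the 9 genes tested. The call held under all 18 alternatives (adjusted p = 0.000378 to 0.0354). Without knockout replicate 1 the log2 fold changes were -0.65 for Foxf1a (adjusted p = 0.00114) and -0.39 for Tbx2 (adjusted p = 0.00649). The same library stood apart in the clock gene Arntl, at 7.22 CPM against 20.52 to 22.79 CPM in the other knockout libraries and 2.03 to 2.74 CPM in wild type. The part of this in the Foxf1a and Tbx2 values was not tested. In whole lung, fewer cells of a type and less RNA per cell cannot be told apart.

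**Figure D2:**
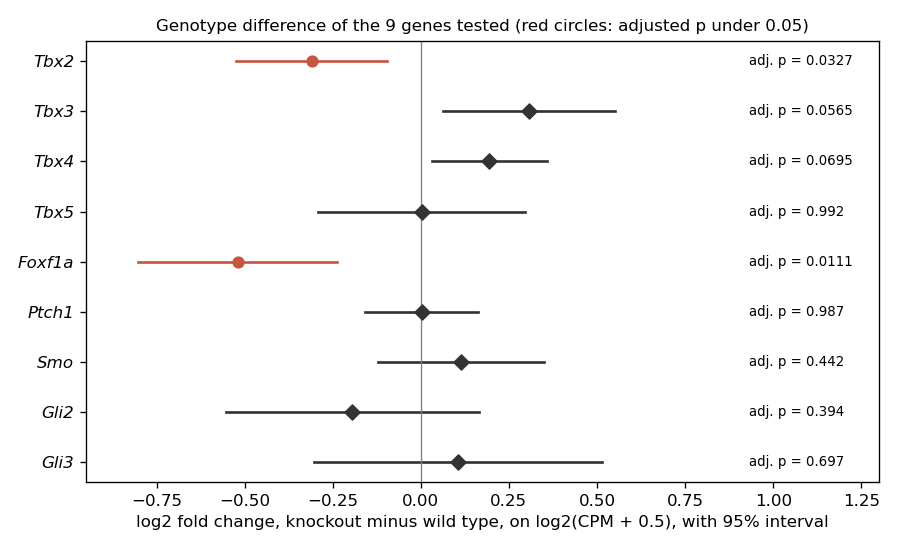
Log2 fold change, knockout minus wild type on log2(CPM + 0.5), with its 95% interval for the 9 genes tested; red circles mark an adjusted p under 0.05 and dark diamonds the rest. Foxf1a and Tbx2 lie below 0, the intervals of Tbx3 and Tbx4 lie above 0 with adjusted p of 0.0565 and 0.0695, and the other 5 intervals span 0.

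The Hedgehog receptor genes were not called. Ptch1, the Shh receptor that holds Smo inactive, stood at 22.43, 20.38, 22 and 21.03 CPM in wild type and at 20.01, 22.99, 21.19 and 21.82 CPM in the knockout. Its groups overlapped widely, and the log2 fold change was 0.00 (SE 0.073, 95% interval -0.16 to 0.16, adjusted p = 0.987). The interval corresponds to a knockout level between 0.896 and 1.12 times that of wild type, the narrowest of the 9 intervals. The estimate was -0.02 with TMM or median-ratio scaling. Smo, the membrane protein that Ptch1 restrains, stood at 13.76, 12.91, 15.7 and 14.1 CPM in wild type and at 14.37, 18.66, 13.66 and 14.91 CPM in the knockout. Only knockout replicate 2 lay above the wild type range, and the log2 fold change was 0.11 (95% interval -0.12 to 0.35, adjusted p = 0.442).

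Gli2, the main activator downstream of Smo, stood at 4.72, 4.25, 4.39 and 4.42 CPM in wild type and at 4.44, 5.21, 3.11 and 2.92 CPM in the knockout. Knockout replicates 3 and 4 lay below all wild type libraries and replicate 2 above them, with a log2 fold change of -0.19 (95% interval -0.55 to 0.17, adjusted p = 0.394). Gli3, which acts mainly as a repressor when the pathway is off, stood at 1.79, 2.26, 2.08 and 3.46 CPM in wild type and at 3.11, 2.84, 2.21 and 2.15 CPM in the knockout. All knockout values lay inside the wild type range (log2 fold change 0.11, 95% interval -0.30 to 0.51, adjusted p = 0.697). At these levels a 1.43-fold rise of Gli3 or a fall of Gli2 to 0.681 times wild type lies at the end of the interval.

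Gli1, a transcriptional target and amplifier of the pathway, was close to the limit of detection. It had 5, 4, 4 and 6 reads in wild type replicates 1 to 4 and 3, 1, 2 and 1 reads in knockout replicates 1 to 4, which is 0.3, 0.22, 0.23 and 0.38 CPM against 0.2, 0.07, 0.14 and 0.08 CPM. The groups did not overlap, and the exact permutation test of mean CPM over the 70 splits of 8 libraries (two-sided) gave p = 0.0286, the smallest it can give and unadjusted. A limma fit with no limit on low values gave a log2 fold change of -0.33 (unadjusted p = 0.0423, adjusted p = 0.109). All 4 knockout libraries were at or under 3 reads, the floor used here. Summed, the 19 wild type and 7 knockout reads gave a ratio of 2.28 with a 95% counting interval of 0.919 to 6.43 (exact), which includes 1 and covers counting error only. Gli1 overlaps Arhgap9 on the other strand, at 7.83 ± 1.38 and 6.61 ± 0.914 CPM, and no source used here states whether counting used strand.

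Ratios of 2 genes within a library depend little on how libraries are scaled, and 7 were compared between genotypes. The log2 ratio of Tbx2 to Tbx3, the 2 repressor paralogues, was -0.21, -0.33, -0.49 and -0.40 in wild type and -0.76, -1.19, -0.95 and -0.98 in the knockout. The groups did not overlap, and the mean difference of -0.62 had an exact two-sided permutation p of 0.0286, the smallest possible, and 0.10 adjusted over the 7 ratios. The ratio of Tbx2 to Tbx4, which lie on the same chromosome, also separated the groups, at 0.10, 0.16, -0.02 and 0.11 in wild type and -0.19, -0.48, -0.43 and -0.56 in the knockout. Tbx2 exceeded Tbx4 in 3 of 4 wild type libraries and in 0 of 4 knockout libraries (difference -0.50, exact p = 0.0286, adjusted 0.10). Knockout replicate 1 lay beyond all wild type libraries in both ratios, unlike in Tbx2 alone. The other ratios overlapped between groups: Tbx4 to Tbx5 differed by 0.19, Gli3 to Gli2 by 0.30 and Ptch1 to Smo by -0.11. Their exact permutation p were 0.257, 0.229 and 0.20. The ratios of Gli1 to Ptch1 (difference -0.33) and of Gli3 to Gli1 (difference 0.44) overlapped on this scale, with an exact permutation p of 0.0571 each, but the pseudocount of 0.5 CPM exceeds every Gli1 value. Without it the groups separated: Gli1 over Ptch1 was 0.0105 to 0.0181 in wild type and 0.00304 to 0.009995 in the knockout, and Gli3 over Gli1 was 5.97 to 10.3 and 15.6 to 40.6. With a pseudocount of 0.1 the log2 differences were -0.80 and 0.93 (exact permutation p = 0.0286 each, unadjusted). Both ratios rest on the few Gli1 reads.

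**Figure D3:**
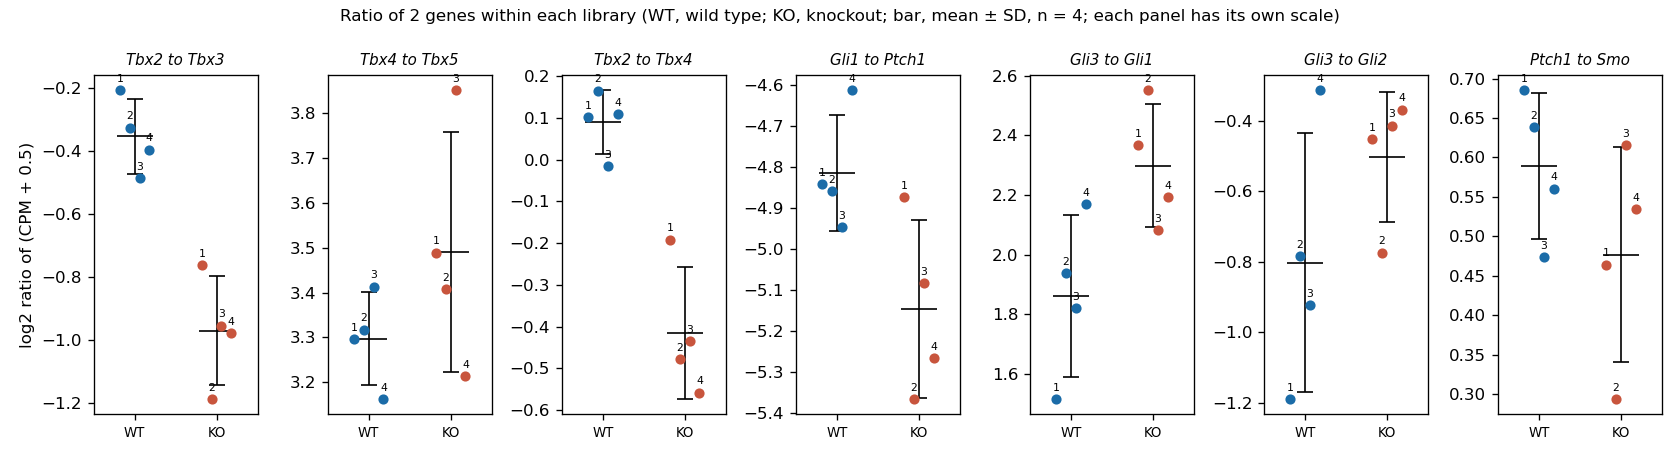
Log2 ratio of (CPM + 0.5) of 2 genes within each library, for 7 pairs, with wild type (WT) in blue, knockout (KO) in red, replicate numbers beside the points and mean ± SD as bars. Tbx2 to Tbx3 and Tbx2 to Tbx4 are lower in all 4 knockout libraries than in any wild type library, and the other 5 pairs overlap on this scale; the 2 pairs with Gli1 separate when no pseudocount is added.

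The order of levels among the 10 genes can be read on the CPM scale, since CAGE counts transcript ends and CPM here is not divided by length. In wild type, Foxf1a (128 ± 12.1 CPM) and Tbx3 (126 ± 14.1 CPM) led and did not differ beyond their spread, each being the higher in 2 of 4 libraries. Tbx2 (98.5 ± 6.62 CPM) and Tbx4 (92.6 ± 7.53 CPM) came next, with overlapping ranges. A wide gap separated these 4 from Ptch1 (21.5 ± 0.928 CPM), and Smo, Tbx5, Gli2, Gli3 and Gli1 followed in that order. In the knockout Tbx3 alone led (157 ± 24.6 CPM, above Tbx4 in 4 of 4 libraries). Tbx4 (106 ± 7.6 CPM), Foxf1a (90.25 ± 19.2 CPM) and Tbx2 (79.8 ± 11.6 CPM) came next; the range of Foxf1a overlapped those of both others, while Tbx4 lay above Tbx2 without overlap. Foxf1a was above Tbx2 in each of the 4 libraries. From Ptch1 down the order was the same in both genotypes.

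Deviations of each library from its genotype mean, on log2(CPM + 0.5), were compared with those of 168 other genes of the lists over the 8 libraries. The gene most like Tbx2 was Foxf1a (Pearson r = 0.95), and that most like Foxf1a was Tbx2. For Gli2 it was Foxf2, the paralogue of Foxf1a (r = 0.96). Tbx3 was most like Itgb1 (0.98), Tbx4 most like Gja5 (0.94), Tbx5 most like Scube1 (0.92), Smo most like Flt1 (0.98), Ptch1 most like Gja1 (0.90) and Gli3 most like Atp2a2 (0.90). Tbx3 and Tbx4 also deviated together (r = 0.90). These are the highest of many correlations over few libraries that share their depth, and are given as description.

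Listed genes that overlap a member or lie within 5 kb of it were looked up by name in GENCODE M21, after values were seen. The noncoding gene 2610027K06Rik, which starts next to Tbx2 and runs on the opposite strand, stood at 5.98, 6.56, 7.79 and 6.22 CPM in wild type and at 9.27, 13.05, 9.66 and 10.6 CPM in the knockout. It rose by 0.64 on the log2 scale without overlap of the groups (SE 0.125, limma adjusted p = 0.00339, 0.00011 to 0.0125 over 18 alternatives), while Tbx2 fell. Tbx3os1, antisense to Tbx3 and listed as Gm2301, stood at 5.75 ± 0.714 and 5.57 ± 0.443 CPM (adjusted p = 0.818). Gm20388, a gene model that overlaps Foxf1a on the same strand, stood at 15.5 ± 1.83 and 13.7 ± 2.26 CPM (adjusted p = 0.32). Mthfsd, beside Foxf1a, stood at 10.6 ± 0.3 and 10.6 ± 1.05 CPM (adjusted p = 0.961). How reads were divided between overlapping genes makes the values of Tbx3, Foxf1a and Gli1 uncertain to that extent. Ptch1, Smo, Gli2 and Gli3 also overlap annotated genes, which are not listed, and how reads there were counted is not known.

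**Figure D4:**
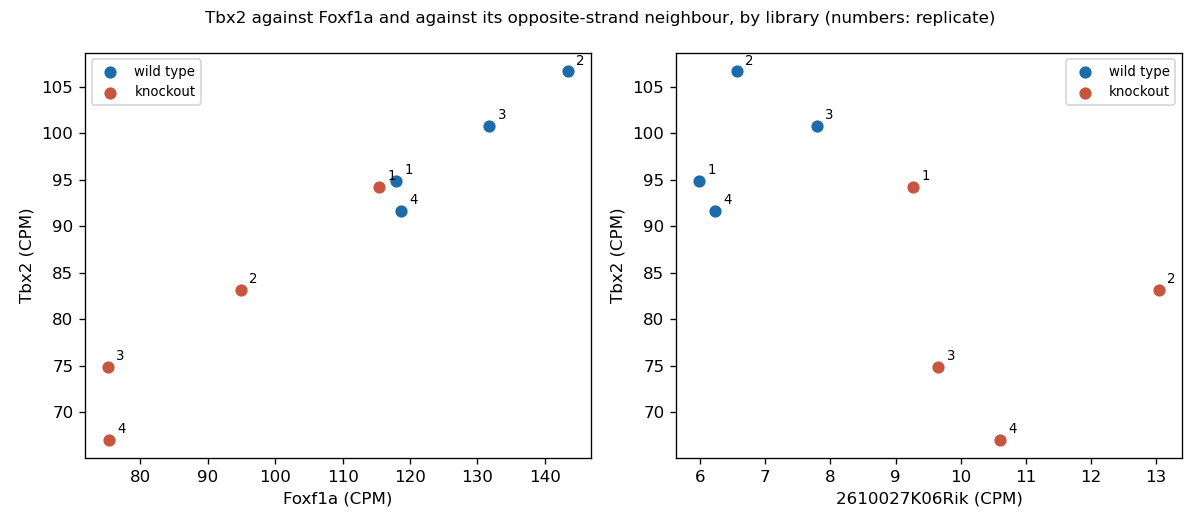
Tbx2 (CPM, vertical axis) against Foxf1a (left) and against the opposite-strand neighbour 2610027K06Rik (right) in each library, wild type in blue and knockout in red, numbered by replicate; axes do not start at 0. Knockout replicate 1 lies beside wild type replicates 1 and 4 in the left panel and apart from them in the right panel, at 9.27 CPM of the neighbour against 7.79 CPM or less in wild type.

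Among the other T-box genes 5 of 13 were listed and 4 tested. Of these 4, 1 rose and 1 fell, 50% beside 30.9% of all genes tested. Mga, which carries a T-box beside a Max-binding domain, rose from 15.8 ± 0.403 to 20.6 ± 1.7 CPM (adjusted p = 0.00565). Tbx1, a factor of pharyngeal and vascular development, fell from 10.4 ± 0.743 to 8.00 ± 0.758 CPM (adjusted p = 0.0169), a call that ended without wild type replicate 1 (adjusted p = 0.0535). Tbx20 and Tbx21 were not called.

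Of the Hedgehog ligands and genes for their release, 5 of 9 were tested, 1 fell and 0 rose in limma, 20% beside 30.9% of all genes tested. Disp2, a relative of the transporter that releases Shh, fell from 6.25 ± 1.06 to 3.12 ± 0.937 CPM (adjusted p = 0.00418). Shh, the ligand made by lung epithelium, stood at 6.16, 4.41, 6.18 and 5.13 CPM in wild type and at 3.91, 5.75, 5.31 and 4.38 CPM in the knockout. Its groups overlapped, and the log2 fold change was -0.16 (95% interval -0.49 to 0.16, adjusted p = 0.425). Dhh, a second ligand, stood at 2.09 ± 0.577 and 3.04 ± 0.623 CPM (adjusted p = 0.0828). Dhh was the 1 gene of the list that was higher at an unadjusted p under 0.05, and edgeR and DESeq2 also called 0 higher.

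Of 8 surface receptors and coreceptors, all tested, 1 fell and 0 rose, 12.5% beside 30.9% of all genes tested. Hhip, which binds Hedgehog ligands at the cell surface and is itself induced by the pathway, stood at 15.73, 19.36, 21.59 and 14.94 CPM in wild type and at 11.33, 14.81, 13.32 and 14.22 CPM in the knockout. The groups were separated by a narrow margin, and Hhip fell by 0.39 on the log2 scale (SE 0.127, adjusted p = 0.036). Omitting any of 4 libraries (wild type replicates 2 and 3, knockout replicates 1 and 3) took the adjusted p to between 0.0722 and 0.101, and its range over 18 alternatives was 0.00747 to 0.101. The coreceptors Gas1 (42.6 ± 6.08 and 48.7 ± 6.62 CPM), Cdon (8.09 ± 0.865 and 9.93 ± 1.22 CPM) and Boc (11 ± 1.69 and 10.8 ± 1.51 CPM) were not called. Cdon was the 1 gene higher at an unadjusted p under 0.05, and edgeR and DESeq2 also called 0 higher.

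Of 26 tested genes of Hedgehog transduction, 2 rose and 6 fell, 30.8% in all, beside 30.9% over all genes tested. The genes with the smallest adjusted p all act in other pathways too. The kinase gene Gsk3a fell from 29 ± 2.37 to 18 ± 1.53 CPM (adjusted p = 0.000302) and Gsk3b from 44.4 ± 1.39 to 32.2 ± 5.11 CPM. Spop, an adaptor that targets Gli proteins for degradation, fell from 63.8 ± 3.3 to 47.6 ± 0.92 CPM (adjusted p = 0.000601). Adrbk1, a receptor kinase that acts on Smo, fell from 14.8 ± 1.45 to 8.87 ± 1.6 CPM (adjusted p = 0.00185). Sufu, the cytoplasmic inhibitor of Gli proteins, stood at 12.9 ± 0.768 and 13.6 ± 1.01 CPM (adjusted p = 0.522).

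Among 17 tested Hedgehog target genes, 1 rose and 2 fell, 17.6% against 30.9% over all genes, with a median log2 fold change of 0.00. Hhip and Foxf1a fell, and Igfbp6, a binding protein of insulin-like growth factors, rose from 298 ± 22 to 403 ± 44.8 CPM (adjusted p = 0.00287). The targets Ptch1 and Bmp4 (29.9 ± 4.69 and 35.8 ± 5.1 CPM) were not called. Neither were the forkhead genes Foxf2 (42 ± 3.27 and 40 ± 11 CPM) and Foxl1 (1.24 ± 0.338 and 1.22 ± 0.13 CPM).

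Of 19 tested transcription factors of lung mesenchyme, 0 rose and 4 fell (Tbx2, Foxf1a, Tcf21 and Meox2), 21.1% in all beside 30.9% of all genes tested. Tcf21, a factor of lung fibroblasts, stood at 58.85, 65.67, 62.42 and 58.53 CPM in wild type and at 38.75, 43.62, 40.58 and 35.04 CPM in the knockout. The groups lay far apart, and Tcf21 fell by 0.63 (SE 0.0775, adjusted p = 0.000207). Meox2, a homeobox gene of mesenchyme and vessels, went from 11.9 ± 1.2 to 9.21 ± 1.29 CPM (adjusted p = 0.0373). Its call ended when any 1 library other than wild type replicate 4 or knockout replicate 2 was left out (0.0165 to 0.105 over 18 alternatives). At an unadjusted p under 0.05, 3 genes of the list were higher (Tbx3, Tbx4 and Heyl), and edgeR called these 3 and DESeq2 called 2, Tbx3 and Tbx4.

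Among 15 tested genes that T-box factors are known to act on, 4 rose (Gja5, Fgf10, Cdkn1a and Cdkn2a) and 3 fell (Nppa, Cdkn1c and Atp2a2), 46.7% in all beside 30.9% of all genes tested. With 1 library left out, 1 to 4 rose and 0 to 2 fell; Nppa was under the limit on low values in the fits that omitted a wild type library, and Cdkn2a in those that omitted a knockout library. Nppa, an atrial peptide gene that Tbx5 activates and Tbx2 and Tbx3 repress in the heart, went from 63.1 ± 25.1 to 0.0725 ± 0.0574 CPM and was listed at 0 in knockout replicate 1, while Tbx5 stood at 8.95 ± 0.269 and 9.1 ± 1.79 CPM. The pulmonary vein cardiomyocyte list, which holds Nppa, had 10 genes tested. In limma 1 rose and 2 fell (30%), Nppa among them, with a median log2 fold change of -0.25. At an unadjusted p under 0.05 limma placed 1 higher and 4 lower, and edgeR and DESeq2 each called 1 higher and 3 lower. Myh6, an atrial myosin, rose from 28.2 ± 6.84 to 48.1 ± 9.94 CPM, and Sln, a regulator of the calcium pump, fell from 53.3 ± 11.8 to 36.3 ± 7.42 CPM (adjusted p = 0.0289, 0.00377 to 0.0804 over 18 alternatives). Summed over the 11 listed genes of the pulmonary vein cardiomyocyte list, the level was 405 to 629 CPM in wild type and 349 to 559 CPM in the knockout. These sums, with means of 513 ± 119 and 464 ± 91.9 CPM, include Nppa itself. They therefore do not show a fall of the other genes of the list. Cdkn2a, a cell cycle inhibitor that Tbx2 and Tbx3 repress, stood at 0.9, 0.48, 0.4 and 0.64 CPM in wild type and at 4.64, 3.58, 4.35 and 2.07 CPM in the knockout. Nppa and Cdkn2a each passed the limit on low values only through the genotype where they are high, so their calls are no support for the count. Cdkn1c, another cell cycle inhibitor, fell from 18.4 ± 0.902 to 15 ± 1.27 CPM without overlap (adjusted p = 0.0241, 0.0153 to 0.0703 over 18 alternatives). Gja5, a connexin of arteries and atria, rose from 37.6 ± 4.27 to 56.6 ± 5.49 CPM (adjusted p = 0.00107). Fgf10, the mesenchymal growth factor downstream of Tbx4 and Tbx5, went from 4.67 ± 0.64 to 6.28 ± 0.797 CPM without overlap (limma adjusted p = 0.0384; 0.0503 with edgeR and 0.0628 with DESeq2). The call of Fgf10 ended under 7 of 18 alternatives (adjusted p = 0.0268 to 0.101 over all 18). It held in 4 of the 8 fits that left out 1 library. Wnt2, another gene downstream of Tbx4 and Tbx5, stood at 24.4 ± 3.24 and 26.1 ± 4.81 CPM.

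The list of genes downstream of Foxf1 in endothelium, with 18 tested, held 6 genes that rose and 0 that fell in limma, with a median log2 fold change of 0.16. That is 33.3% called, near the 30.9% of all genes tested. At an unadjusted p under 0.05, 2 were lower (Cldn5 and Tek), and edgeR and DESeq2 each called these 2 lower; edgeR called 4 higher and DESeq2 called 6. Emcn, a capillary sialoprotein, rose from 29.9 ± 4.11 to 51.6 ± 2.95 CPM (adjusted p = 0.000178), and Pdgfb, the growth factor that recruits pericytes, from 43.2 ± 4.61 to 62.1 ± 9.1 CPM (adjusted p = 0.00435). Lamb1, a laminin chain, rose from 48.4 ± 5.05 to 65.8 ± 9.44 CPM. The call of S1pr1 (231 ± 13.6 and 270.4 ± 25.5 CPM, adjusted p = 0.0408) ended under 11 of 18 alternatives. Those of Sox17 (limma adjusted p = 0.0481) and Cdh5 (limma adjusted p = 0.0426) ended under 10 and 5 of 18, and the genotypes overlapped for both genes. With 1 library left out, 3 to 7 genes of the list rose.

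**Figure D5:**
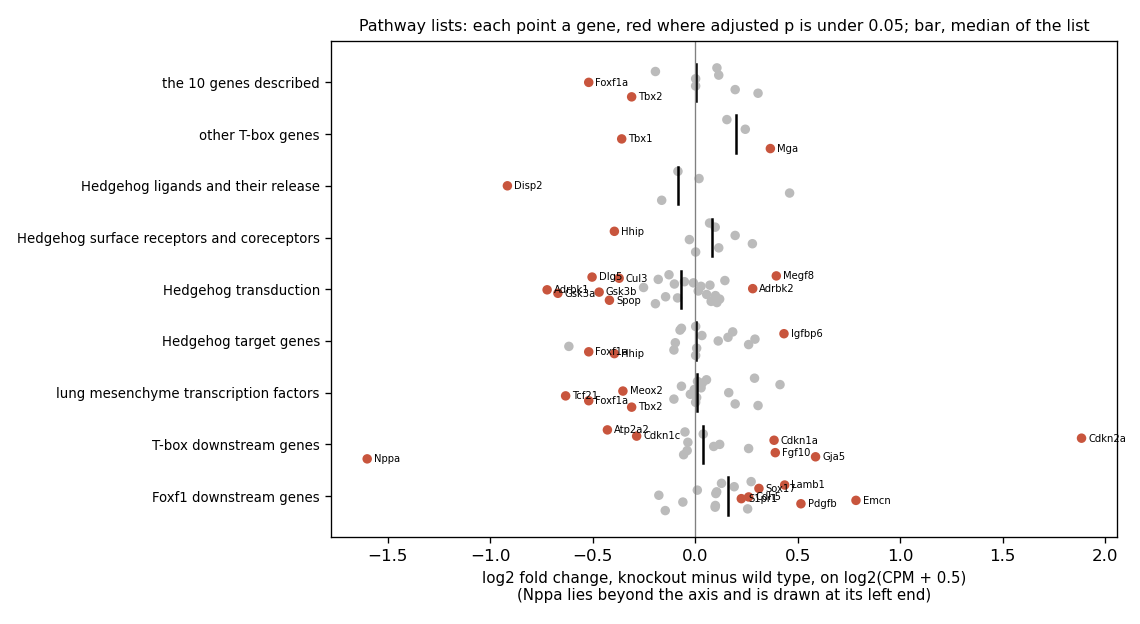
Log2 fold change, knockout minus wild type, of every tested gene of the 9 lists; red points have an adjusted p under 0.05 and are named, grey points do not, and the black bar is the list's median. Nppa (-6.70, a value that depends on the pseudocount) lies beyond the axis and is drawn at its left end. In the Hedgehog receptor list Hhip (-0.39) is the 1 red point, and in the list downstream of Foxf1 all 6 red points lie above 0.

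Markers of the cell types that express these genes moved in both directions, and their counts stand beside the 30.9% of all genes that were called. Of 10 fibroblast genes 2 rose and 1 fell (30%): Pdgfra, a receptor of alveolar fibroblasts, rose from 92 ± 4.34 to 130.2 ± 0.852 CPM, Col13a1 also rose, and Tcf21 fell. The list's summed level was 1979 to 2458 CPM in wild type and 1926 to 2572 CPM in the knockout. Of 8 smooth muscle genes 2 fell (25%), Tagln and Hhip (sums 322 to 343 and 256 to 370 CPM). Of 8 pericyte genes 3 rose and 2 fell (62.5%), among them Pdgfrb (58.8 ± 4.99 to 80.6 ± 12.2 CPM) and Notch3 (21.8 ± 2.1 to 15 ± 2.43 CPM), with sums of 315 to 320 and 322 to 386 CPM. Of 7 mesothelial genes limma called 2 lower (28.6%, sums 280 to 357 and 318 to 375 CPM), and edgeR and DESeq2 each called 1 higher and 2 lower. Of 10 endothelial genes limma called 2 higher and 0 lower (20%, sums 1944 to 2191 and 1963 to 2166 CPM). At an unadjusted p under 0.05 limma placed 3 endothelial genes higher and 3 lower. With edgeR 2 endothelial genes were called higher and 2 lower, and with DESeq2 3 higher and 3 lower. None of the genes of these 5 lists was at 0 in any library. Leukocyte genes were lower in sum (5502 to 6212 CPM in wild type, 3556 to 4317 CPM in the knockout), with 3 of 7 called lower and 1 higher (57.1%). Most of this sum was Lyz2, which fell from 5347 ± 359 to 3515 ± 358 CPM, beside mean sums of 5859 and 3938 CPM. Cd52 and Coro1a were also called lower. Ptprc was the gene called higher (43.4 ± 2.83 to 53.3 ± 4.72 CPM, limma adjusted p = 0.0155). The fall of the sum is therefore mostly that of Lyz2, and the genes of the list moved in both directions. Of 8 T and NK cell genes 3 fell (37.5%; sums 84.1 to 98.3 and 62.7 to 89.9 CPM). Of 10 epithelial genes 2 rose and 2 fell (40%; sums 156088 to 171792 and 123861 to 150318 CPM). Sftpc fell from 75406 ± 7581 to 40739 ± 4973 CPM, beside mean sums of 166059 and 139163 CPM. Scgb1a1, not called, stood at 83216 ± 9650 and 89790 ± 11500 CPM. Hopx and Epcam were called higher, and Foxj1 was also called lower. The fall of the epithelial sum is therefore that of Sftpc, not of the list as a whole. Of 6 cartilage genes the table used here lists 1: Sox9 stood at 1.12 ± 0.124 and 0.52 ± 0.164 CPM. The part of these marker differences in the values of Foxf1a and Tbx2 was not tested.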

How the data were processed

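CAGE libraries of whole lung (4 wild type, 4 knockout) were sequenced as single end reads in 1 multiplexed pool, per the labels' protocols. The authors deposited 1 table of CPM per gene, with 2 decimals. BWA 0.7.12-r1039, HISAT2 2.0.5, edgeR and mm9 are named in the submitters' processing notes; for the annotation and the use of strand in counting, nothing is stated in the sources used here. CPM values are whole multiples of 1 read, from which the read counts and library totals were recovered. On the scale of CPM, 3 reads correspond to 0.161 to 0.231. Replicates of a group differed by more than sampling noise (chi-square per gene 11.6 to 19.8), and no column was left unassigned.

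The difference knockout minus wild type was fitted with limma 3.58.1 (R 4.3.3, trend) on log2(CPM + 0.5) over genes that reached 1 CPM in 4 or more libraries, with Benjamini-Hochberg adjustment over all 14065 genes and a threshold of 0.05. Fold changes on this scale understate the change of low genes. Alternatives were other pseudocounts, filters and scalings, the replicate number as a block, each library left out in turn, and edgeR 4.0.16 (quasi-likelihood) and DESeq2 1.42.0 on the recovered reads. Single ratios and Gli1 were compared by exact permutation of the 8 libraries, two-sided. The fit was also run on simulated counts, drawn independently for each gene and library at an assumed spread. Real libraries may differ from that setting, and no result here rests on that run.

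The genes and lists were chosen with earlier results of these data known. Beside the 10 genes, the text names up to 4 called genes per list with the smallest adjusted p, Nos3, Shh, Hhip, Nppa and Tcf21, and the gene most like each member. Other genes, among them those beside the members in GENCODE M21, were named after their values were seen. Foxf1a is Foxf1 in GENCODE, and Ebf1, listed in more than 1 row, was left out of its list. Some genes of the lists are not reported here and were left out of their counts. Protein sequences were not analysed here.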

Additional observations from a re-analysis of the deposited data

Results flagged for a closer look

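Tbx5 in wild type replicate 1 stood at 8.55 CPM, apart from the other 3 wild type libraries at 9.04 to 9.12 CPM. The gap to the nearest of them as a share of the group's range exceeded Dixon's 95% critical value for 4 samples. Of 34 groups of values checked, this was the 1 that did so, and chance gives about 1 in 20. Tbx5 had 143, 169, 158 and 141 reads in wild type replicates 1 to 4. The part of counting error in this gap was not tested.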

How the results depend on the processing

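The number of the 9 tested genes called higher, 0 with limma, was 2 with TMM scaling, 2 with median-ratio scaling, 2 with edgeR, 2 with DESeq2, 1 with the replicate block (Tbx3), and 0 to 2 when 1 library was left out. The number called lower, 2, was 1 to 2 when 1 library was left out. The difference in the log2 ratio of Gli1 to Ptch1 (-0.33) was -0.80 with a pseudocount of 0.1 and -0.11 with a pseudocount of 2, and that of Gli3 to Gli1 (0.44) was 0.93 and 0.17; the cause was not tested. Deviations of same-numbered libraries had correlations of -0.0038 to 0.0653, within the -0.134 to 0.122 of libraries with different numbers. With so few libraries these values cannot show whether the numbers pair libraries, for example by litter or day. With the replicate block, 2384 genes were higher and 2014 lower over all genes, against 2341 and 2010 without it. The block ended the limma calls of Meox2 (adjusted p = 0.0659) and Fgf10 (adjusted p = 0.0692). With 1 library left out, the exact permutation p of Tbx2 to Tbx3 was 0.0286 in each fit and that of Tbx2 to Tbx4 was 0.0286 to 0.0571, both unadjusted. A p of 0.0286 is the smallest that a test with 1 library left out can give, so it cannot show a stronger result. Gli1, at 1 to 6 reads in a library, is limited by depth.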
